A study of Mus musculus with 6 samples.

Results

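The 32 genes described here encode the mouse selenoproteins and the enzymes and binding factors that make selenocysteine and insert it into protein. They were taken as a named list of gene symbols: 24 selenoproteins and 9 genes of selenocysteine synthesis and insertion, with Sephs2 in both lists. All 32 were found by their Entrez identifiers among the 27179 genes of the deposited count files. RNA had been sequenced from mouse oocytes at the germinal vesicle stage, the growing and fully grown oocyte before meiosis resumes. Wildtype oocytes (3 libraries) were compared with maternal Prdm10 knockout oocytes (3 libraries), in which Cre recombinase driven by the Zp3 promoter had removed a loxP-flanked exon 5 of Prdm10. The Zp3 promoter is active in the growing oocyte, so Cre acts in the germ cell and only after oocyte growth has started. Each library came from a pool of about 10 oocytes. The labels name the libraries biological replicates without stating that different mice gave the pools, so the tests speak for these 6 pools and their spread. They give neither strain nor age. They also do not say whether the wildtype oocytes carried the floxed allele or the transgene.

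Prdm10 encodes a zinc finger transcription factor. Its level was 10.4, 23.1 and 23.0 CPM (reads of the gene as a share of the library, with library sizes scaled by edgeR's TMM method) in the 3 wildtype libraries and 2.80, 3.82 and 3.05 CPM in the 3 knockout libraries. The groups did not overlap, and the log2 fold change, knockout over wildtype, was -2.54 (SE 0.325, adjusted p = 0.00436, edgeR quasi-likelihood F test). The count covers the whole gene, exons outside the deleted one included. The libraries held between 22492228 and 38831227 counts, so that 1 count was worth 0.0258 to 0.0445 CPM on the library totals, before TMM scaling. Wildtype library 1 stood apart. Its Spearman correlation across genes was 0.976 with wildtype library 2 and 0.975 with wildtype library 3, against 0.996 between those libraries and 0.995 or more within the knockout. Among 12 oocyte markers the summed level was 26529 to 29888 CPM in wildtype and 28102 to 29466 CPM in knockout libraries, with Mos called lower (log2 fold change -0.62, adjusted p = 0.0274, edgeR). The summed level of 12 granulosa and cumulus markers was 86.2 to 95.6 CPM in wildtype and 79.6 to 92.2 CPM in knockout libraries, with Ptgs2 called higher (log2 fold change 1.47, adjusted p = 0.0446, edgeR). For 10 theca and stroma markers the sums were 5.03 to 20.4 CPM in wildtype and 6.96 to 18.2 CPM in knockout. For 8 blood, immune and endothelial markers they were 36.3 to 82.2 CPM in wildtype and 117 to 121 CPM in knockout, so these did not overlap. Of those 8, Hba-a1 and Cdh5 were at 0 in all libraries, 5 stayed under 1 CPM in all libraries, and Cd68 was called higher (log2 fold change 2.28, adjusted p = 0.0108, edgeR). Most of the sum was Pecam1, an endothelial surface protein, at 30.4, 75.6 and 75.7 CPM in wildtype and 103 to 105 CPM in knockout libraries (log2 fold change 0.79, adjusted p = 0.143, edgeR). Kdr, another endothelial marker, averaged 3.50 CPM in wildtype and 3.83 CPM in knockout libraries (log2 fold change 0.14, adjusted p = 0.783, edgeR).

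Selenocysteine is cysteine with selenium in place of sulfur, and selenoproteins carry it mostly in the active site of enzymes that pass electrons to peroxides, disulfides or thyroid hormones. It is written in the mRNA as UGA, which otherwise ends translation. The UGA is read as selenocysteine when the 3′ untranslated region holds a stem-loop, the SECIS element, that is bound by SECIS-binding protein and recruits a dedicated elongation factor with the selenocysteine tRNA. The amino acid is built on that tRNA: serine is attached, phosphorylated by Pstk and converted by Sepsecs with selenophosphate from Sephs2. An mRNA whose UGA is not decoded can be treated as carrying a premature stop codon and degraded, so selenoprotein mRNA levels in many tissues follow selenium supply, each to its own extent. In the oocyte and early embryo the proteins of this family include enzymes that remove hydrogen peroxide and lipid peroxides and that keep thioredoxin reduced.

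The selenocysteine codon marks each family member in its own sequence. The stretches below run from 8 codons before to 8 codons after that codon in the coding strand of a GENCODE M21 transcript (GRCm38), with the codon in capitals. The first 4 belong to the thioredoxin-like group of small selenoproteins to which Selenow belongs, and they are shown because this group held the deepest losses. In each of them a cysteine codon (tgt) stands 3 codons before the TGA, which gives the redox pair of a cysteine and a selenocysteine separated by a pair of other residues.
Selenow: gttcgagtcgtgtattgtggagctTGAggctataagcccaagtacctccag
Selenoh: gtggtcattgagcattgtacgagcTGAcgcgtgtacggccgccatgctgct
Selenot: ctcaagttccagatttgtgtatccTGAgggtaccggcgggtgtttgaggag
Selenov: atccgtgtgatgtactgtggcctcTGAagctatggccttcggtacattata

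The TGA was codon 13 of Selenow, codon 38 of Selenoh, codon 49 of Selenot and codon 255 of Selenov, counted from the start codon. The next 3 stretches are from glutathione peroxidases, among which Gpx1 was the selenoprotein that rose, and they lack the cysteine codon at that place. The TGA was codon 47 of Gpx1, codon 73 of Gpx3 and codon 73 of Gpx4.
Gpx1: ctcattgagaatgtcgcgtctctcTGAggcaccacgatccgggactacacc
Gpx3: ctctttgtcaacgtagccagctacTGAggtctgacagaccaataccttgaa
Gpx4: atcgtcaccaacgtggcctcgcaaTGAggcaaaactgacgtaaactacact

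Txnrd1 is shown as an example of the other arrangement, in which selenocysteine lies at the very end of the protein. Its TGA was codon 498 of 499 and is followed by a glycine codon and the stop codon.
Txnrd1: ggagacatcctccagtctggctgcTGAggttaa

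Selenoproteins are defined by this codon, and where a gene had several coding transcripts, those with an in-frame TGA were preferred. By this choice, an in-frame TGA inside the coding sequence was found for 24 of the 24 selenoproteins. It was within the last 15 codons in 7 of them, and a cysteine codon stood 3 codons before it in 6. Selenop had 10 such codons, the first of them at codon 59.

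Of the 32 genes, 29 had enough counts to be tested, and 5 were called at an adjusted p under 0.05 (edgeR quasi-likelihood F test, Benjamini-Hochberg adjustment over all 14957 genes tested): Gpx1 was higher in the knockout, and Selenow, Selenoh, Selenop and Pstk were lower. The share called among all genes tested was 11.2% (5.87% higher and 5.34% lower), and the members' count is near it. The median log2 fold change of the 29 was -0.01, against -0.00 over all genes tested. By list, 1 of the 21 selenoproteins tested rose and 3 fell, with a median of 0.17. Of the 9 synthesis and insertion genes, 0 rose and 1 fell (edgeR), with a median of -0.15. For 16 of the 29 tested members the 3 knockout values did not overlap the 3 wildtype values, 8 of them higher and 8 lower, and 40.2% of all genes tested had this property. At an unadjusted p under 0.05, 11 of the 29 passed, against 28.8% of all genes tested. Leaving out wildtype library 1 raised the count of selenoproteins called to 10 of 21 (6 higher, 4 lower) and the count of synthesis and insertion genes to 3 of 9, while the share of all genes called rose to 34.4%.

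**Figure D1:**
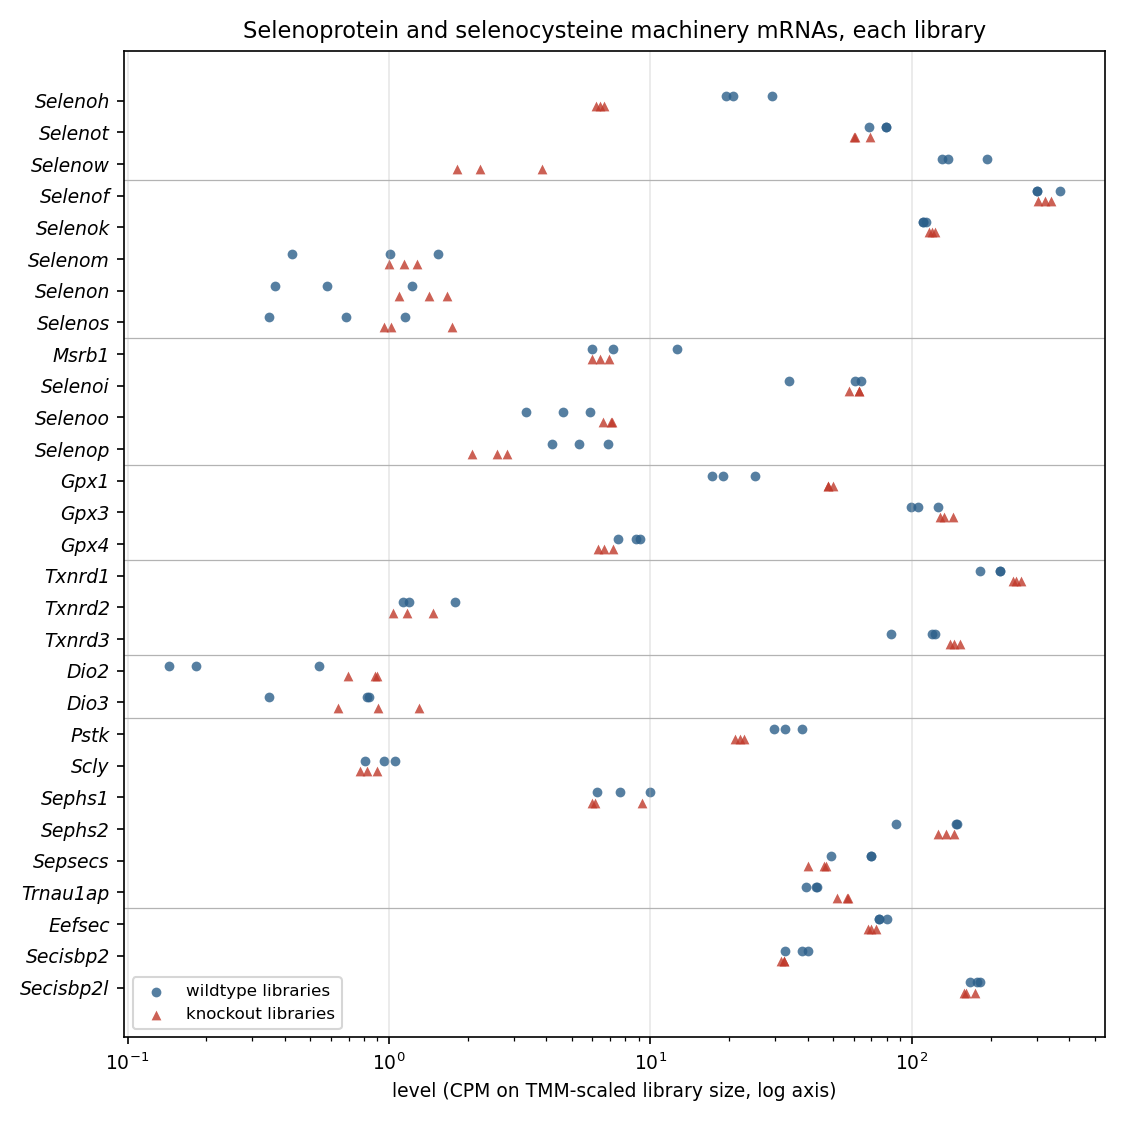
Level of each of the 29 tested genes in each library, in CPM on TMM-scaled library size (log axis), with knockout and wildtype libraries in separate colours. The 3 knockout points of Selenow lie at 1.82 to 3.86 CPM and its wildtype points at 130.1 to 194 CPM, a gap that no other gene in the plot shows.

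Selenow encodes selenoprotein W, a small thioredoxin-like protein best known from muscle and brain. In wildtype oocytes it was at 194, 137 and 130.1 CPM, and in knockout oocytes at 3.86, 1.82 and 2.22 CPM. The highest knockout library was thus far under the lowest wildtype library. The mean fell from 154 ± 35.1 to 2.63 ± 1.08 CPM (SD, n = 3 each), which is 58.5-fold lower, with a log2 fold change of -5.87 (SE 0.333, 95% interval -6.64 to -5.10, adjusted p = 0.000164, edgeR). Only 3 of the 14957 genes tested had a lower log2 fold change. The counts behind these values were 8082, 3555 and 2844 reads in wildtype and 131, 68 and 84 reads in knockout libraries, so the remaining level lay above the floor of 3 counts in each of them. In a bulk library, fewer cells that express a gene and less RNA per cell cannot be told apart. Each pool held about 10 oocytes. The summed oocyte markers overlapped between the groups, but as a share of reads they do not count cells. Which of these applied to Selenow was not tested.

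Selenow lies on chromosome 7 from 15917208 to 15922371 on the minus strand (GRCm38, RefSeq), with its selenocysteine codon at 15920464 to 15920466. No annotated gene overlaps it. No transcript of another annotated gene matched its longest coding transcript over 200 bases or more at 95% identity or more. Shorter matches were not counted, and sequence outside the annotated transcripts was not searched. The gene next to its start, Nop53, which encodes a nucleolar ribosome assembly factor, was at 6.80 CPM in wildtype and 8.0 CPM in knockout oocytes (log2 fold change 0.23, adjusted p = 0.431, edgeR). On the other side, Crx and Crxos were at or near 0 CPM in both groups. Of the flanking genes, Nop53 was thus the one with enough reads to compare, and it was not called.

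Since Selenow carried the deepest loss, 219 bases upstream of the gene are shown, with CpG pairs in capitals. They lie on chromosome 7 from 15922403 to 15922621 (GRCm38, minus strand, from the RefSeq promoter table) and end just before the GENCODE start at 15922402, which lies a little upstream of the RefSeq start at 15922371.
Selenow upstream: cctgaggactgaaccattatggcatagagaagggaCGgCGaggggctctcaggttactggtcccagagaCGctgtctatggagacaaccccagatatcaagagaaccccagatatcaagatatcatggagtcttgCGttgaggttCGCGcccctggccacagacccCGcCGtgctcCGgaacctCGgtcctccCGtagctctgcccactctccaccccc

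The stretch had 11 CpG pairs and a GC content of 58.9%. Over the whole RefSeq promoter window, which also covers the first bases of the transcript, Selenow had 17 CpG pairs and 59.3% GC. The medians were 7 pairs and 52.7% over all 32851 promoter windows in the table. Over the 39 windows of the members they were 15 pairs and 58.7%, so Selenow was near the middle of its own family. The motif TGACNNNGC, the core of the antioxidant response element bound by Nrf2, was searched on both strands. It was present in 2 of the 39 windows that the table holds for 31 of the members (5.13%, in Txnrd1 and Selenok) and in 12.4% of all windows. Some members, such as Gpx4 and Selenop, had several overlapping windows, and a difference between these shares was not tested. The motif was not in the Selenow window, which ran from 15922322 to 15922621. Sequence further from the start sites was not searched.

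Selenoh encodes a nucleolar member of the same thioredoxin-like group, on chromosome 2 from 84669215 to 84670708 (minus strand). Wildtype libraries held 29.2, 20.6 and 19.4 CPM and knockout libraries 6.40, 6.17 and 6.65 CPM, again without overlap and with little spread in the knockout. The mean fell from 23.1 ± 5.35 to 6.41 ± 0.239 CPM (SD, n = 3 each), 3.61-fold, with a log2 fold change of -1.85 (SE 0.188, 95% interval -2.29 to -1.42, adjusted p = 0.00184, edgeR). Selenot, an endoplasmic reticulum relative of the group, was at 68.2, 79.6 and 79.8 CPM in wildtype and 60.1, 60.4 and 69.2 CPM in knockout oocytes. Those ranges overlapped, and the log2 fold change was -0.26 (95% interval -0.55 to 0.03, adjusted p = 0.213, edgeR). Without wildtype library 1, Selenot was called lower (log2 fold change -0.33, adjusted p = 0.00690, edgeR). Selenov, the closest relative of Selenow in sequence and a testis gene, had 0 reads in all wildtype libraries and 0, 2 and 1 reads in the knockout libraries, too few to test.

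The rule for these genes sets Selenow against the other selenoproteins. Scaled by the length of its exons, Selenow was the most abundant of the 32 transcripts in wildtype oocytes, at 209 ± 47.7 CPM per kb (SD, n = 3). Gpx3 followed at 60.8, Selenok at 58.9, Sephs2 at 58.5 and Selenof at 55.7 CPM per kb. In knockout oocytes Selenow was 18th of 32 at 3.58 CPM per kb, and Gpx3 was first at 74.4. Using each gene's longest transcript in place of the union of its exons left Selenow first in wildtype oocytes and put it 19th in knockout oocytes, but changed the order below it. By that measure Selenof was at 120.02 CPM per kb in wildtype, next after Selenow, and first in knockout oocytes at 119 CPM per kb, ahead of Gpx3 at 84.7.

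**Figure D2:**
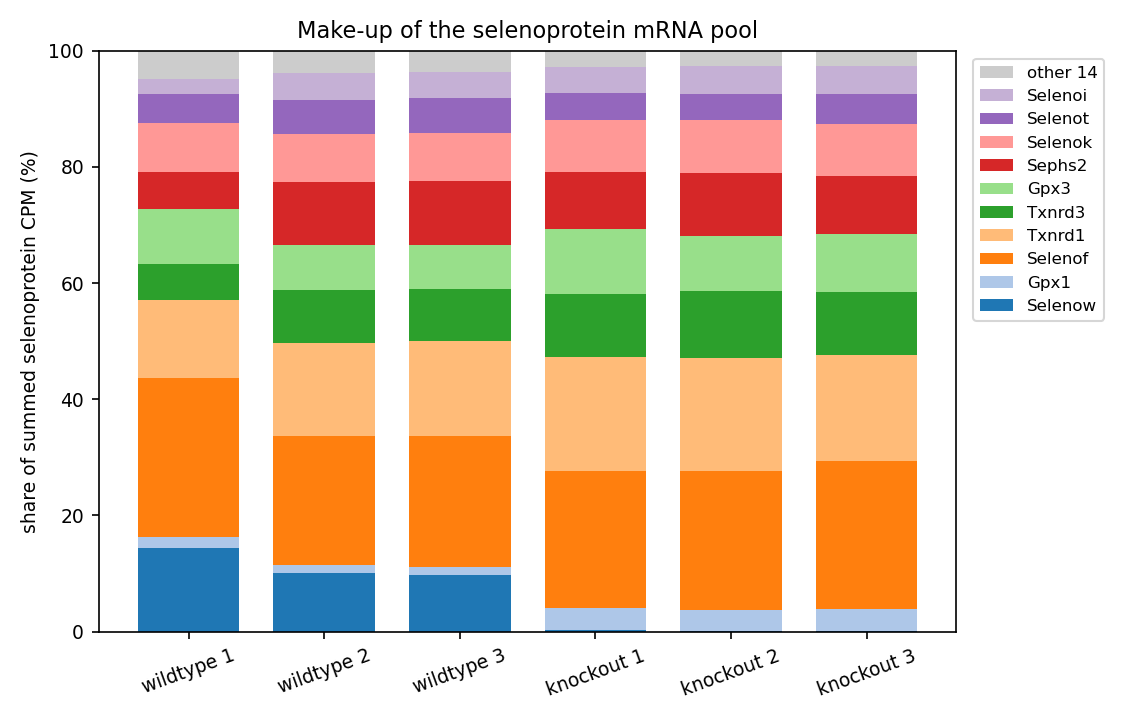
Share of the summed CPM of the 24 selenoproteins taken by the most abundant ones in each library, as stacked bars in percent. Selenow takes 9.77% to 14.4% of the bar in wildtype libraries and 0.136% to 0.301% in knockout libraries.

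A sum of CPM is a share of reads and so also reflects transcript length. The 24 selenoprotein mRNAs together made up 1347, 1356 and 1331 CPM in wildtype and 1285, 1340 and 1335 CPM in knockout libraries. Their means were 1345 ± 12.8 and 1320 ± 30.5 CPM, and the ranges overlapped. Without Selenow, the other 23 summed to 1191 ± 34.7 CPM in wildtype and 1317 ± 31.6 CPM in knockout oocytes. Those sums did not overlap, at 1152, 1220 and 1201 CPM in wildtype and 1281, 1338 and 1332 CPM in knockout libraries. The composition of the pool of 24 therefore differed more than its summed size, in which a lower Selenow stood beside a higher sum of the rest.

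Selenow was 14.4% of the summed CPM in wildtype library 1 (95% Wilson interval 14.1 to 14.7), 10.1% in library 2 (9.78 to 10.4) and 9.77% in library 3 (9.44 to 10.1). In the knockout it was 0.301% (0.253 to 0.357), 0.136% (0.107 to 0.172) and 0.167% (0.135 to 0.206). Reads of amplified cDNA are not independent molecules, so the intervals cover counting error only. The log2 ratio of Selenow to the sum of the other selenoproteins was -2.98 ± 0.354 in wildtype and -9.04 ± 0.597 in knockout oocytes, a difference of -6.06, and it ranged from -6.40 to -5.82 when any library was left out. The mean share of Selenof was 24.1% in wildtype and 24.4% in knockout oocytes, that of Txnrd1 15.3% and 19.0%, that of Txnrd3 8.06% and 11.04%, and that of Gpx3 8.19% and 10.2%. Shares add up to the whole, so a lower share of Selenow raises the other shares even where their levels are unchanged.

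Glutathione peroxidases reduce hydrogen peroxide and lipid hydroperoxides with glutathione. Gpx1, the abundant cytosolic enzyme, lies on chromosome 9 from 108339080 to 108340342 (plus strand), with its selenocysteine codon at 108339451 to 108339453. It was at 25.1, 18.9 and 17.2 CPM in wildtype and 47.9, 47.9 and 49.96 CPM in knockout oocytes. The knockout values were close to each other and all above the wildtype range. The mean rose from 20.4 ± 4.12 to 48.6 ± 1.19 CPM (SD, n = 3 each), 2.38-fold, with a log2 fold change of 1.25 (SE 0.162, 95% interval 0.87 to 1.62, adjusted p = 0.00455, edgeR). By CPM per kb it moved from 13th to 7th of the 32 genes. The flanking genes were not called: the log2 difference was -0.02 for Rhoa (adjusted p = 0.936, edgeR) and 0.31 for Usp4 (adjusted p = 0.404, edgeR). Gpx1 is also abundant in blood and immune cells. Of the markers of those cells, Hbb-bs, Hba-a1, Ptprc and Adgre1 were at or near 0 in all libraries, while Cd68 averaged 2.10 CPM in wildtype and 10.6 CPM in knockout oocytes, and its part in the result was not tested. The ratio of Gpx1 to Selenow CPM was 0.129, 0.138 and 0.133 in wildtype libraries and 12.4, 26.4 and 22.5 in knockout libraries. Per kb, Selenow was above Gpx1 in wildtype oocytes (209 against 14.2 CPM per kb) and below it in knockout oocytes (3.58 against 33.7).

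Gpx3, the secreted enzyme, had the highest level per kb of the glutathione peroxidases, and was at 126, 105 and 99.2 CPM in wildtype and 144, 128 and 133 CPM in knockout oocytes. The groups did not overlap, but the difference was not called (log2 fold change 0.29, 95% interval -0.01 to 0.59, adjusted p = 0.186, edgeR). Gpx4, which removes lipid hydroperoxides from membranes, was at 8.45 ± 0.838 CPM in wildtype and 6.72 ± 0.461 CPM in knockout oocytes, without overlap (log2 fold change -0.33, adjusted p = 0.194, edgeR). Its value is uncertain, since the annotated copy Gpx4-ps2 matched it at 99.7% identity over 733 bases and a processed pseudogene at 95.1% over 510 bases, and reads could be divided between them. Gpx2, the gut enzyme, had 0 reads in all wildtype libraries and 2, 2 and 0 in knockout libraries, and it was not tested.

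Thioredoxin reductases keep thioredoxin in its reduced form. Txnrd1, the cytosolic enzyme, was at 181, 217 and 218 CPM in wildtype and 250.4, 261 and 242.5 CPM in knockout oocytes. All knockout values were above all wildtype values, with a log2 fold change of 0.29 (95% interval 0.01 to 0.57, adjusted p = 0.16, edgeR) that was not called. Txnrd3, an enzyme with an added glutaredoxin domain that is best known from testis, was at 83.5, 122 and 119 CPM in wildtype and 139.7, 153 and 144 CPM in knockout oocytes. It too lay higher in each knockout library without passing the test (log2 fold change 0.43, 95% interval 0.05 to 0.80, adjusted p = 0.131, edgeR). The mitochondrial enzyme Txnrd2 was at 1.37 ± 0.361 and 1.23 ± 0.225 CPM in the same order (log2 fold change -0.14, adjusted p = 0.766, edgeR). Gpx3, Txnrd1 and Txnrd3 were each called higher when wildtype library 1 was left out.

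**Figure D3:**
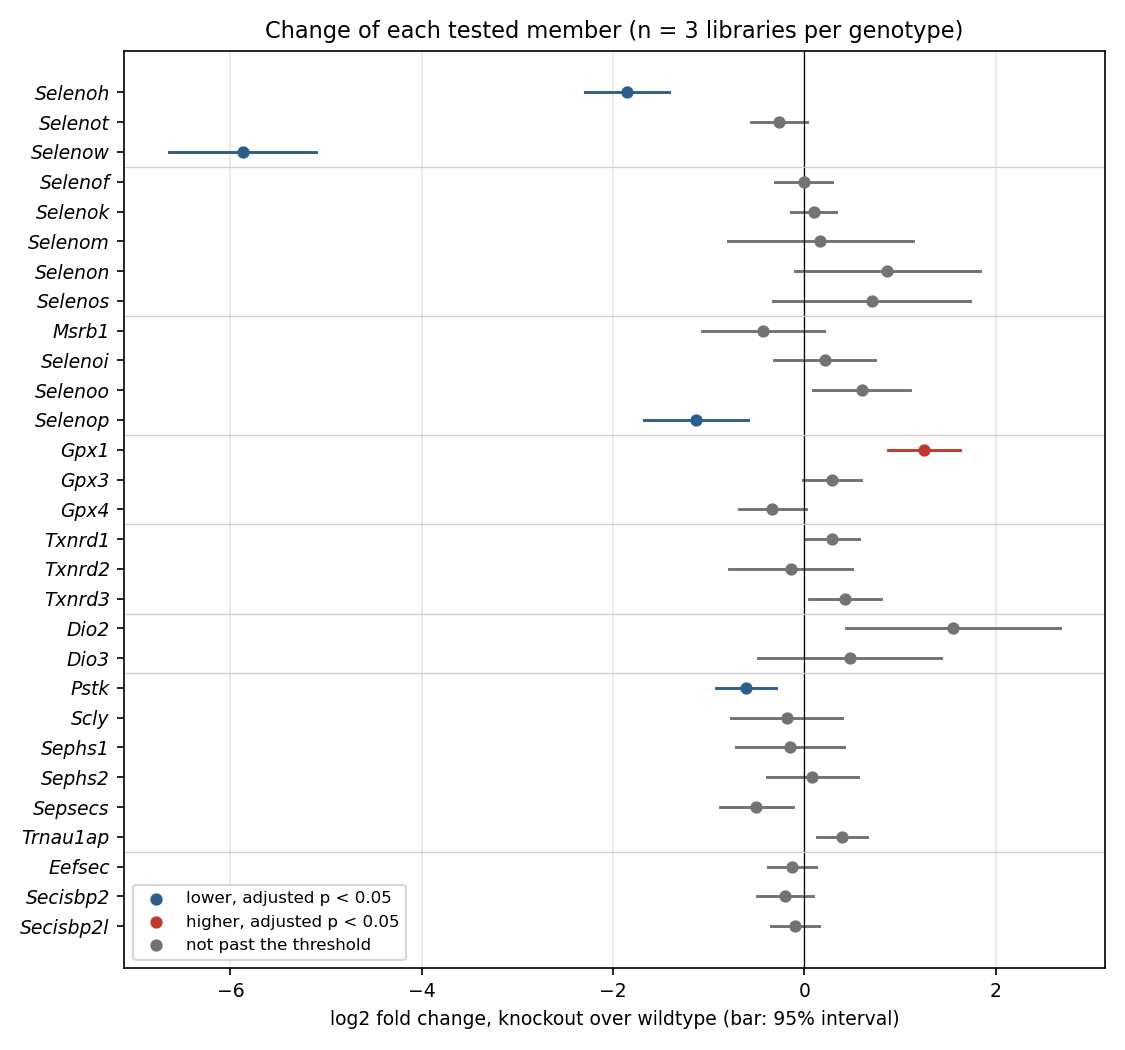
Log2 fold change, knockout over wildtype, of each of the 29 tested genes with its 95% interval (n = 3 libraries each), with called genes marked. Selenow at -5.87 lies far from the rest, Selenoh at -1.85 and Gpx1 at 1.25 have intervals clear of 0, and most other intervals span 0.

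Another 5 selenoproteins reside in the endoplasmic reticulum, where they take part in protein folding, degradation and calcium handling. Of these 5, 0 were called by edgeR or by DESeq2, and 0 had an unadjusted p under 0.05 in edgeR. Selenof, a partner of the glycoprotein folding sensor, was at 369, 302 and 301 CPM in wildtype and 304, 321 and 341 CPM in knockout oocytes. Its ranges overlapped (log2 fold change -0.01, 95% interval -0.30 to 0.29, adjusted p = 0.975, edgeR). Selenok, a membrane protein that supports protein palmitoylation, was at 113, 111 and 111 CPM in wildtype and 116, 122 and 119.6 CPM in knockout oocytes. The knockout values lay just above the wildtype values (log2 fold change 0.10, 95% interval -0.14 to 0.33, adjusted p = 0.555, edgeR), and 5 other annotated genes, 4 of them pseudogenes, carry near-identical sequence. The remaining 3 were near the lower end of what was measured. Selenom, a thioredoxin-like protein, averaged 0.989 CPM in wildtype and 1.14 CPM in knockout oocytes (log2 fold change 0.17, adjusted p = 0.817, edgeR). Selenos, which takes part in the export of misfolded proteins, averaged 0.728 and 1.24 CPM (log2 fold change 0.70, adjusted p = 0.333, edgeR), and Selenon, known for calcium handling in muscle, 0.723 and 1.39 CPM (log2 fold change 0.87, adjusted p = 0.217, edgeR). Without wildtype library 1, Selenos (adjusted p = 0.0366) and Selenon (adjusted p = 0.00670) were called higher by edgeR.

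Selenop is secreted, mostly by liver, and carries selenium through plasma to tissues that take it up by receptors of the lipoprotein receptor family. It lies on chromosome 15 from 3270767 to 3280510 (plus strand). It was at 5.31, 6.90 and 4.21 CPM in wildtype and 2.59, 2.08 and 2.83 CPM in knockout oocytes, low levels without overlap. The mean fell from 5.47 ± 1.35 to 2.50 ± 0.383 CPM (SD, n = 3 each), 2.19-fold, with a log2 fold change of -1.13 (SE 0.235, 95% interval -1.67 to -0.58, adjusted p = 0.0246, edgeR). The call was lost without any single knockout library or without wildtype library 2 (adjusted p from 0.0636 to 0.114, edgeR). The gene overlaps Ccdc152, which shares 438 bases with it and was not called (log2 fold change -0.35, adjusted p = 0.399, edgeR), and the sources used here do not say how reads in shared exons were counted.

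Selenoi, the ethanolamine phosphotransferase of phospholipid synthesis, was at 33.8, 63.6 and 60.6 CPM in wildtype and 57.4, 62.9 and 62.5 CPM in knockout oocytes. Wildtype library 1 alone lay apart there (log2 fold change 0.21, 95% interval -0.32 to 0.74, adjusted p = 0.565, edgeR). Selenoo, a mitochondrial pseudokinase that transfers AMP to proteins, was at 4.61 ± 1.26 CPM in wildtype and 6.92 ± 0.301 CPM in knockout oocytes. The groups did not overlap, but the difference was not called (log2 fold change 0.60, 95% interval 0.09 to 1.11, adjusted p = 0.121, edgeR). The gene overlaps Tubgcp6. Msrb1, which repairs oxidised methionine, was at 8.60 ± 3.56 and 6.44 ± 0.483 CPM in the same order (log2 fold change -0.43, adjusted p = 0.339, edgeR).

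The deiodinases activate or inactivate thyroid hormone. Dio2, the activating enzyme, was at 0.144, 0.539 and 0.183 CPM in wildtype and 0.884, 0.695 and 0.901 CPM in knockout oocytes. These levels did not overlap but rest on few reads (log2 fold change 1.56, 95% interval 0.44 to 2.67, adjusted p = 0.0790, edgeR). Dio2 was called higher in 2 of the 13 alternatives that gave it a value. These were DESeq2 and an edgeR fit with a library left out (adjusted p = 0.0275 in the latter). The inactivating Dio3 was at 0.670 ± 0.28 CPM in wildtype and 0.947 ± 0.332 CPM in knockout oocytes (log2 fold change 0.48, adjusted p = 0.473, edgeR). Its antisense neighbour Dio3os was called lower (log2 fold change -1.54, adjusted p = 0.0309, edgeR), and since strand use in the counting is not given in the sources used here, reads of that pair may not be separated. Dio1 had 11, 6 and 6 reads in wildtype and 5, 9 and 2 in knockout libraries and was not tested.

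Of the genes that build selenocysteine, Pstk fell. This kinase phosphorylates the serine carried by the selenocysteine tRNA, and its gene lies on chromosome 7 from 131371113 to 131392768 (plus strand), overlapping Ikzf5. Pstk was at 38.1, 29.5 and 32.7 CPM in wildtype and 21.1, 21.9 and 22.8 CPM in knockout oocytes, with no overlap. The mean went from 33.4 ± 4.35 to 21.9 ± 0.839 CPM (SD, n = 3 each), 1.53-fold lower, with a log2 fold change of -0.61 (SE 0.136, 95% interval -0.92 to -0.29, adjusted p = 0.0305, edgeR). Without any single knockout library or without wildtype library 3 it was not called (adjusted p from 0.0690 to 0.138, edgeR). For Ikzf5 the log2 difference was -0.31 (adjusted p = 0.515, edgeR).

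Sepsecs, which takes the next step, was at 49.0, 69.4 and 69.6 CPM in wildtype and 39.9, 47.0 and 45.9 CPM in knockout oocytes. Each knockout value was under each wildtype value, but the difference was not called (log2 fold change -0.50, 95% interval -0.88 to -0.12, adjusted p = 0.0939, edgeR). Sephs2, the selenophosphate synthetase that is itself a selenoprotein, was at 86.8, 148 and 147 CPM in wildtype and 126, 145 and 135 CPM in knockout oocytes. Its ranges overlapped (log2 fold change 0.09, 95% interval -0.39 to 0.57, adjusted p = 0.814, edgeR), and the annotated transcript Gm44729 shares 792 bases with it. Sephs1, its relative without selenocysteine, was at 7.93 ± 1.86 and 7.11 ± 1.86 CPM (log2 fold change -0.15, adjusted p = 0.709, edgeR). Scly, the lyase that frees selenium from selenocysteine, was under 1 CPM in the mean of both groups (log2 fold change -0.18, adjusted p = 0.658, edgeR).

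Trnau1ap, which binds the selenocysteine tRNA, was at 39.5, 43.4 and 42.9 CPM in wildtype and 51.8, 56.8 and 56.4 CPM in knockout oocytes. It was higher in each knockout library without being called (log2 fold change 0.39, 95% interval 0.13 to 0.66, adjusted p = 0.0661, edgeR). Without wildtype library 1, Sepsecs was called lower and Trnau1ap higher.

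The insertion factors themselves differed little. For 2 of the 3, Secisbp2 and Eefsec, all knockout values nevertheless lay under all wildtype values, and 40.2% of all genes tested did not overlap. Secisbp2l, a relative of the SECIS-binding protein, was at 178, 167 and 182 CPM in wildtype and 159, 160.3 and 174 CPM in knockout oocytes (log2 fold change -0.10, 95% interval -0.35 to 0.16, adjusted p = 0.591, edgeR). Secisbp2, the SECIS-binding protein, was at 36.9 ± 3.92 and 32.1 ± 0.557 CPM in the same order (log2 fold change -0.20, 95% interval -0.49 to 0.09, adjusted p = 0.327, edgeR). Eefsec, the selenocysteine elongation factor, was at 74.9, 80.5 and 74.8 CPM in wildtype and 72.9, 69.7 and 67.9 CPM in knockout oocytes (log2 fold change -0.13, 95% interval -0.38 to 0.12, adjusted p = 0.455, edgeR). Their intervals leave room for changes no larger than 0.49 on the log2 scale in either direction. The summed level of the 9 synthesis and insertion genes was 564 ± 44.6 CPM in wildtype and 531 ± 16.0 CPM in knockout oocytes.

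**Figure D4:**
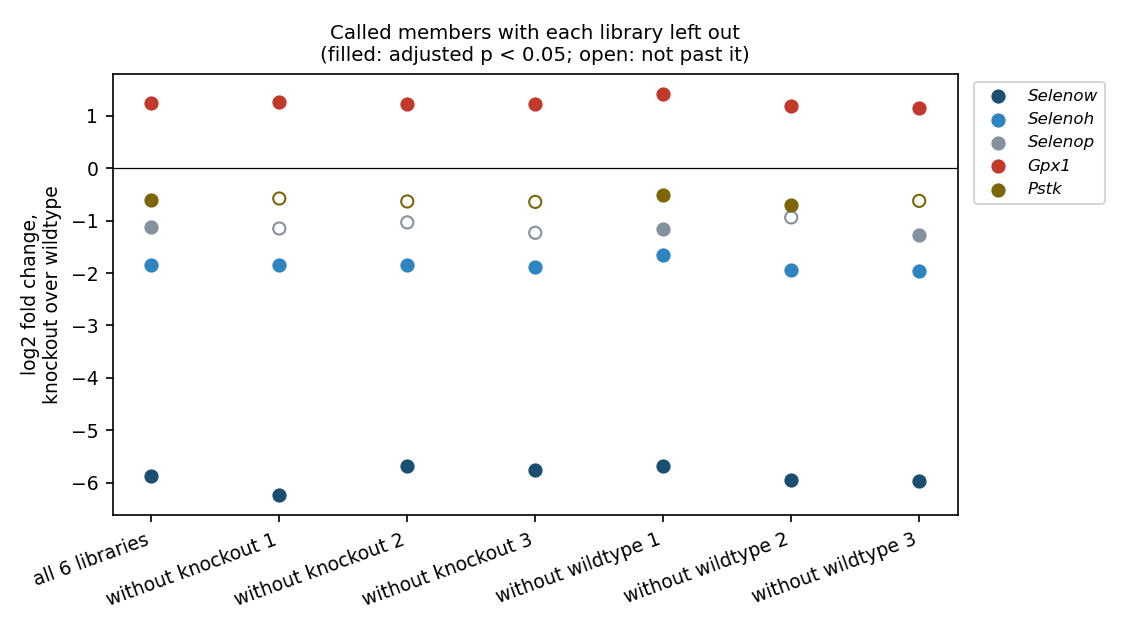
Log2 fold change, knockout over wildtype, of the 5 called genes with all 6 libraries and with each library left out in turn. Selenow stays near -6, Selenoh near -2 and Gpx1 above 1 throughout, while Selenop and Pstk, closer to 0, keep their direction but not always their call.

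The members that were not called divide into those measured well and those that were not. Of the 24 tested and uncalled genes, 19 had a log2 fold change under 0.5 in size. There were 13 with at least 20 CPM in wildtype oocytes, and their log2 fold changes lay between -0.50 and 0.43, with interval ends no further out than -0.88 and 0.80. The 95% interval of each of these 13 genes thus ended well short of the changes of Selenow and Selenoh.

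The place of the selenocysteine codon relative to the last exon junction was also tabulated, since a stop codon more than about 50 bases before that junction is the usual mark of a substrate of nonsense-mediated decay. The division was made after the values were seen and is given as a description. In 14 selenoproteins the codon lay more than 50 bases before the last junction, and 11 of these were tested. Among them Selenow (243 bases before the junction), Selenoh (136) and Selenop (357, from its first such codon) fell and Gpx1 (105) rose, with a median log2 fold change of -0.14. In the other 10, all tested, the codon lay nearer to or beyond the junction, or the coding transcript had no junction, as in Dio3 and Sephs2. Of those 10, 0 were called by edgeR, with log2 fold changes from -0.43 to 1.56 and a median of 0.36. DESeq2 called Dio2 among them. In each of the groups, 4 genes had an unadjusted p under 0.05 (edgeR). Over all genes tested, 11.2% were called and 28.8% had an unadjusted p under 0.05 (edgeR). Selenot (470 bases), Gpx4 (342) and Gpx3 (240) also lay in the first group and were not called. Whether the position bears on the differences was not tested.

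**Figure D5:**
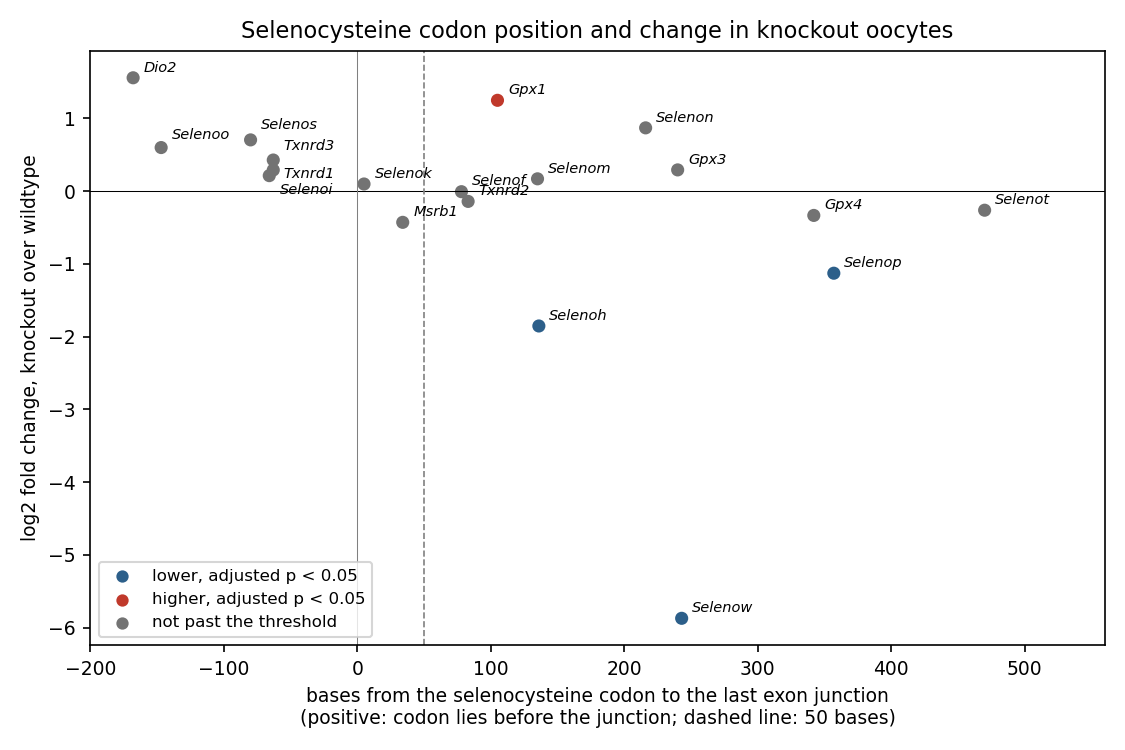
Log2 fold change, knockout over wildtype, of the tested selenoproteins against the distance in bases from the selenocysteine codon to the last exon junction (positive where the codon lies before the junction; the dashed line is at 50 bases). The 4 called genes lie to the right of the line among uncalled genes such as Selenot and Gpx3.

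Beyond the 32 genes, 39 partner genes of the pathway were read from the same fit: receptors of selenoprotein P, selenium metabolism, tRNA maturation, mRNA-binding and decay factors, cysteine homologues and redox partners. Of the 36 tested, 2 rose, 1 fell and 33 were not called, with a median log2 fold change of 0.01. Among all genes tested, 11.2% were called (edgeR). Gpx6, which in the mouse carries cysteine in place of selenocysteine and had no in-frame TGA, was at 51.1, 41.7 and 39.7 CPM in wildtype and 64.8, 83.9 and 77.4 CPM in knockout oocytes. It rose 1.71-fold without overlap (log2 fold change 0.77, SE 0.153, adjusted p = 0.0209, edgeR). Prdx4, the peroxiredoxin of the endoplasmic reticulum, rose from 5.03 ± 0.516 to 9.81 ± 0.595 CPM (log2 fold change 0.97, SE 0.155, adjusted p = 0.0102, edgeR). Prdx2, an abundant cytosolic peroxiredoxin that depends on thioredoxin, was at 832, 636 and 633 CPM in wildtype and 332, 378.8 and 374.6 CPM in knockout oocytes. Its knockout values were all far under the wildtype range, and the log2 fold change was -0.95 (SE 0.146, adjusted p = 0.00868, edgeR), with the pseudogene Tdpx-ps1 as a near-identical copy. All of these calls were lost on leaving out single libraries: Gpx6 when any single library but wildtype library 1 was left out (adjusted p from 0.0519 to 0.128), Prdx4 without knockout library 2 or 3 (0.0713 and 0.0621), and Prdx2 without any single knockout library (0.0530 to 0.0622), each by edgeR. Without wildtype library 1, 13 partner genes were called, while the share of all genes called was 34.4%. Neither the selenoprotein P receptors Lrp8 and Lrp2 nor the decay factors Upf1, Upf2, Upf3b and Smg1 were called by edgeR.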

How the data were processed

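The authors deposited whole-number read counts per Entrez gene for 6 libraries. Per the labels' protocols, RNA was isolated with a PicoPure kit, and cDNA was made with a SMARTer low-input kit, tagged with Nextera XT and sequenced single-end. Per the submitters' processing notes, STAR 2.7.11a, featureCounts 2.0.3 and GRCm38.p6 (mm10) were used. The counting annotation, strand setting and handling of reads with several matches were not given in the sources used here. Of 27179 identifiers, 25275 were named from a RefSeq table (GRCm38.p6), which also gave positions and promoter sequences. Exon lengths and coding sequences came from GENCODE M21.

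Genes were filtered with filterByExpr (minimum count 10), scaled by TMM and tested with edgeR 4.0.16 (quasi-likelihood F test, R 4.3.3), and were called at a Benjamini-Hochberg adjusted p under 0.05 over all genes tested. The fit was tested on simulated data. Alternatives were DESeq2 1.42.0, limma 3.58.1 (voom), other scalings and filters, a replicate block and each library left out. The members, the lists and the partner genes were chosen with earlier results of these data known. Every member is named, with values per library for Selenow, called members and the 8 other members of highest mean CPM. Called partner genes and Prdm10 are named too. No 2 libraries were duplicates.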

Additional observations from a re-analysis of the deposited data

How the results depend on the processing

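Selenow, Selenoh and Gpx1 kept their direction and their call under the 14 alternatives run, 6 of which left out a library. Their log2 fold changes ranged from -6.24 to -5.68, from -1.96 to -1.65 and from 1.14 to 1.42, with adjusted p no higher than 0.00327, 0.0251 and 0.0415. The number of all genes called was 1676; it was 1038 with the stricter filter (5 CPM in 3 libraries), 2671 with DESeq2, and between 357 and 5199 with a library left out. Between 3 and 10 selenoproteins were called with a library left out, against 4 with all libraries, and the 10 came without wildtype library 1. For the synthesis and insertion genes the count of 1 became 3 with DESeq2 and lay between 0 and 3 with a library left out. For the partner genes the count of 3 became 6 with DESeq2 and lay between 0 and 13 with a library left out. The stricter filter gave no value for Selenop and 7 other members of low level. Uncalled genes crossed 0 when a library was left out: Selenof (-0.064 to 0.095), Selenom (-0.19 to 0.71), Selenoi (-0.028 to 0.37), Txnrd2 (-0.29 to 0.082), Sephs2 (-0.13 to 0.20) and Sephs1 (-0.38 to 0.040). With DESeq2, Dio2 (adjusted p = 0.0405), Sepsecs (0.0448) and Trnau1ap (0.0212) were called. With the replicate number as a block, 537 of all genes, 3 selenoproteins, 0 synthesis and insertion genes and 2 partner genes were called, and Selenop (adjusted p = 0.0871, edgeR), Pstk (0.0999) and Gpx6 (0.0818) were not. The replicate numbers showed no pairing of the libraries: deviations of same-numbered libraries from their group means correlated at -0.06, 0.01 and -0.09, and no library correlated best with its own number. With 3 libraries per group and wildtype library 1 standing apart, this cannot settle whether same-numbered pools were collected together. The median log2 fold change of all genes moved by less than 0.1 in each setting. The cause of these changes was not tested.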
